A study of Mus musculus with 20 samples.

Results

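Phf6 conditional knockout (cKO) and wild-type (WT) AgRP neurons were compared in fasted mice, over the 10 libraries that the labels give as fasted, 5 of each genotype, out of 20 libraries in the series. The fasted cKO libraries came from Phf6 flox/y mice that also carried AgRP-Cre/+ and Ai9/+, and the fasted WT libraries from littermates with AgRP-Cre/+ and Ai9/+ alone. All mice were C57BL/6 at P25-P30, and food was withdrawn at 5 pm on the preceding day while water stayed. The 10 fed libraries have the same genotypes and ages. In this model Cre is driven from Agrp, so that Phf6 is lost and the red reporter tdTomato of the Ai9 allele is switched on in the same cells, and each library was made from 1000 sorted tdTomato+ hypothalamic cells. The labels do not say whether each library is a separate animal, so p-values measure only the spread between these libraries.

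AgRP neurons of the arcuate nucleus release AgRP, NPY and GABA, drive feeding, and become more active when energy is short. Their activity induces immediate early transcription factors such as Fos within minutes, and these in turn regulate slower response genes. PHF6 is an X-linked chromatin protein with zinc fingers of the PHD type, and its loss in humans causes an intellectual disability syndrome that includes obesity. The comparison asks how the transcriptome of hungry AgRP neurons differs when PHF6 is missing.

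Depth was 8542250 to 9282818 counts in the fasted cKO libraries and 8494499 to 10000278 in the fasted WT libraries (2-sided exact permutation test of the means, p = 0.0952). Npy and Agrp, which define the sorted cells, had at least 36620 and 9221 CPM (counts scaled to a common library total) in every fasted library, and markers of glia, vessels and blood were low, with summed levels of at most 91.0 CPM for astrocytes and 37.4 CPM for microglia in cKO, against 59.2 and 35.4 CPM in WT. No hemoglobin gene of the list had a count in any of the 10 libraries. Replicates 1 and 2 of both genotypes stood apart from replicates 3 to 5. Between-library variation beyond counting noise, as edgeR estimates it, was a coefficient of 0.139 for all 5 cKO libraries but 0.111 within replicates 1 and 2 and 0.0974 within replicates 3 to 5, and the same values in fasted WT were 0.173, 0.100 and 0.0977. The labels give no batch, so what the sets are is not known, and every result was also computed within each set.

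Phf6 (X:52912266-52956943, GRCm38) itself was lower in every fasted cKO library. Its CPM, scaled by the trimmed mean of M values (TMM), were 51.5, 49.4, 65.6, 57.9 and 57.6 in cKO, against 132, 110, 108, 120 and 125 in WT. The groups did not overlap, and the log2 fold change, cKO over WT, was -1.07 ± 0.092 (SE; edgeR quasi-likelihood test, Benjamini-Hochberg adjusted p = 1.84e-05). In fed mice the corresponding log2 fold change was -1.97, and the difference between the feeding states passed the interaction test (adjusted p = 6.4e-07). Counts cover the whole gene, and which exons are floxed is not given in the sources used here.

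Of 12333 genes tested, 731 rose in fasted cKO neurons (5.93% of those tested) and 621 fell (5.04%; 11% in either direction), at an adjusted p under 0.05. Most changes were modest, with a median log2 fold change of 0.53 among the genes that rose and -0.55 among those that fell. At least 2-fold changes were seen for 73 genes that rose and 79 that fell. The cKO and WT ranges did not overlap for 507 of the genes that rose and 397 of those that fell, while over all tested genes, called or not, cKO lay wholly above WT for 640 (5.19%) and wholly below for 533 (4.32%). With a term for the replicate set the counts were 1448 (11.7%) and 1273 (10.3%), and they included all 1352 genes called without it. They were 381 and 306 without WT replicate 3, 463 and 393 without WT replicate 4, 477 and 377 without WT replicate 5, and 465 and 370 without cKO replicate 1, the libraries whose omission moved them by more than 1.5 times. Calls were spread over the genome, from 7.69% of tested genes on chromosome 18 to 15.6% on chromosome 12, and 4 of 34 tested genes within 5 Mb of Phf6 were called.

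**Figure D1:**
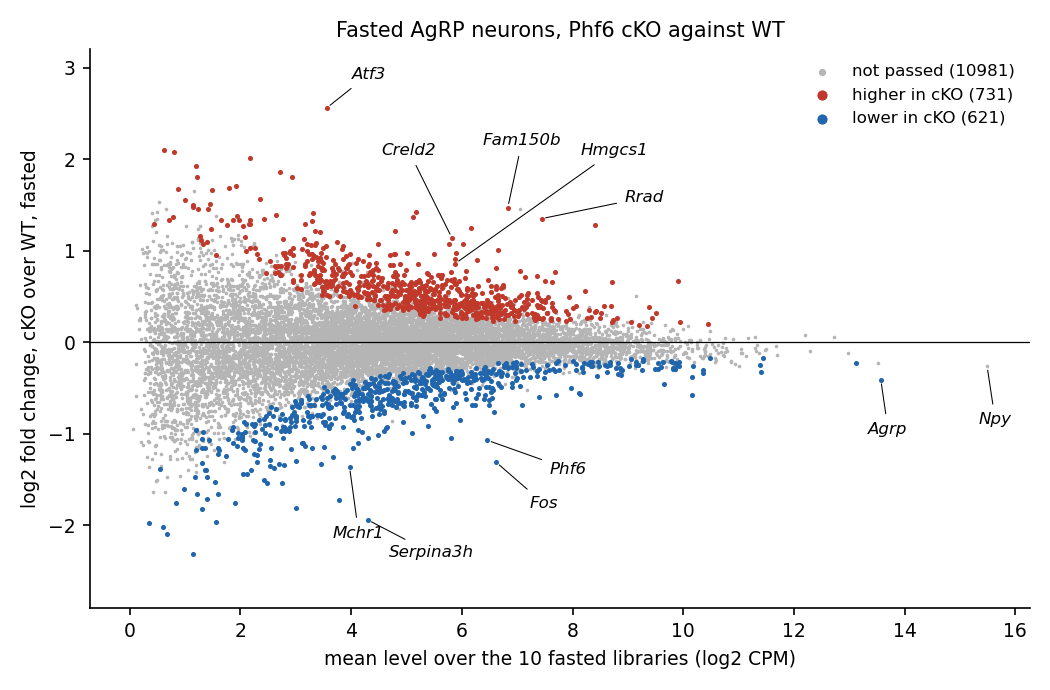
Each point is a tested gene, placed by its mean level over the 10 fasted libraries (log2 CPM, x axis) and its log2 fold change, cKO over WT (y axis). The 731 genes that rose are red, the 621 that fell are blue, and Atf3 stands highest among those with a mean log2 CPM of at least 3.

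Rises and falls were ranked among called genes at a mean log2 CPM of at least 3, leaving out numbered gene models. Of these, Atf3, a stress-induced transcription factor of the ATF family, led the rises with a log2 fold change of 2.56 ± 0.26 (adjusted p = 6.38e-05). It had 20.7, 30.2, 18.8, 19.2 and 10.3 CPM in cKO, against 4.86, 3.36, 3.72, 2.40 and 2.45 CPM in WT, so every cKO library was above every WT library. Fam150b, listed by RefSeq as Alkal2 (12:30884324-30893856) and encoding a ligand of the ALK receptor, rose by 1.47 ± 0.23 (adjusted p = 0.00149), and Rrad, a small GTPase that inhibits voltage-gated calcium channels, rose by 1.35 ± 0.19 (adjusted p = 0.000708). Both had also risen in fed cKO neurons, by 0.96 and 1.22 on the log2 scale, and neither effect differed between feeding states at the threshold (adjusted p = 0.196 and 0.725). Tpm4 (1.37), an actin-binding tropomyosin, Tnfrsf12a (1.25), the receptor of the cytokine TWEAK, and Thbs1 (1.42), a secreted matrix protein, rose as well. Further large rises were those of the nuclear and chromatin genes Banp (1.41), Nup35 (1.22), Cdc7 (1.22), Gtf2e2 (1.07) and Hist3h2a (1.13), and of Coa4 (1.08), Armt1 (1.29) and Exosc6 (1.32). All exon bases of Exosc6 lie within exons of Aars, and 33% of those of Hist3h2a are shared with Trim17, so these 2 values are uncertain.

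The falls ranked in this way were led by Serpina3h. It is annotated as a transcribed pseudogene within a cluster of serine protease inhibitor genes on chromosome 12. Its close relatives make its counts uncertain. It had 5.88, 7.35, 7.04, 9.13 and 10.8 CPM in cKO, against 31.8, 42.2, 24.9, 29.2 and 27.2 CPM in WT (log2 fold change -1.94 ± 0.18, adjusted p = 1.86e-05). Cyba, a subunit of the superoxide-producing NADPH oxidase (-1.81 ± 0.19), and Gnb3, a G protein beta subunit (-1.72 ± 0.20), followed with no overlap between genotypes. These 3 genes were also lower in fed cKO neurons, by log2 fold changes of -2.30, -1.19 and -1.36, and their effects did not differ between feeding states at the threshold. Mchr1, the receptor of melanin-concentrating hormone, fell by 1.36 and Fos by 1.31 on the log2 scale. Other falls of more than 2-fold were those of Fxyd5 (-1.33), Zfp433 (-1.30), the kinase gene Nim1k (-1.25), the lipoxygenase gene Aloxe3 (-1.16), Gcfc2 (-1.15), Slc27a1 (-1.14), Sh3bgr (-1.13), and the transcription factor gene Klf11 (-1.10). Gcfc2 shares 25% of its exon bases with Mrpl19, which runs on the other strand, and the kit used keeps no strand information.

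Activity-induced transcription factors split in fasted cKO neurons, with Fos lower and a set of related factors higher. Fos (12:85473890-85477273), which pairs with Jun proteins in the AP-1 factor, had 56.1, 37.9, 59.6, 62.8 and 64.3 CPM in cKO, against 133, 125, 134, 156 and 151 CPM in WT, with no overlap (log2 fold change -1.31 ± 0.12, adjusted p = 1.86e-05). Jun was the reverse at 25.9, 20.5, 24.9, 26.5 and 26.8 CPM in cKO, against 14, 14.4, 14.6, 13.8 and 13.5 CPM in WT (0.83 ± 0.12, adjusted p = 0.000663). Fosb and Fosl2, the other Fos relatives that passed, rose by 1.86 ± 0.28 and 0.95 ± 0.17 (adjusted p = 0.00115 and 0.00342), and all 5 cKO libraries lay above all 5 WT libraries for both. Nr4a3, an orphan nuclear receptor, rose by 1.8 ± 0.25, and Crem, a cyclic AMP response factor, by 0.77 ± 0.14. Of the 24 immediate early and activity transcription factors tested, 6 rose, 1 fell and 17 did not pass (29.2% called, against 11% of all tested genes). The list median was 0.17 against -0.02 over all tested genes, and no fit that left out 1 library changed the call of any of the 7 called. Egr1 was at 41.5 ± 4.75 CPM in cKO and 44.5 ± 7.14 CPM in WT (SD, n = 5 each; adjusted p = 0.637), and Nr4a1 at 11.1 ± 2.72 and 15.2 ± 3.48 CPM (adjusted p = 0.130). In replicates 1 and 2 alone Nr4a1 had a log2 fold change of -1.07 (adjusted p = 0.00425) and in replicates 3 to 5 alone -0.07, a difference between sets that did not pass (adjusted p = 0.0643). Fosb, Fosl2 and Crem were singled out after their values were seen.

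The fed state gave another picture for the same genes. In fed mice, whose libraries are separate from the fasted ones, the log2 fold change of cKO over WT was 5.37 for Fos, 5.49 for Egr1, 4.74 for Nr4a1 and 4.36 for Fosb, and the list median was 1.48. The interaction of genotype with feeding was -6.68 for Fos (adjusted p = 3.72e-21), -5.59 for Egr1 (3.21e-15) and -5.20 for Nr4a1 (1.88e-10). Nr4a3 and Crem had similar genotype effects in both states, 1.8 and 0.77 when fasted and 1.92 and 0.92 when fed, and their interactions did not pass (adjusted p = 0.866 and 0.582).

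Of the 25 late activity effector genes tested, Homer1, a postsynaptic scaffold, rose by 0.66, Spry2, an inhibitor of receptor tyrosine kinase signalling, rose by 1.07, and Dusp1, a MAP kinase phosphatase, fell by 0.74 on the log2 scale. The other 22 did not pass, and the list median was 0.02. The share called was 12%, close to the 11% of all tested genes. Homer1 passed in every fit that left out 1 library, Dusp1 in 9 of 10 (adjusted p = 0.0545 without WT replicate 3) and Spry2 in 6 of 10 (adjusted p up to 0.0747).

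**Figure D2:**
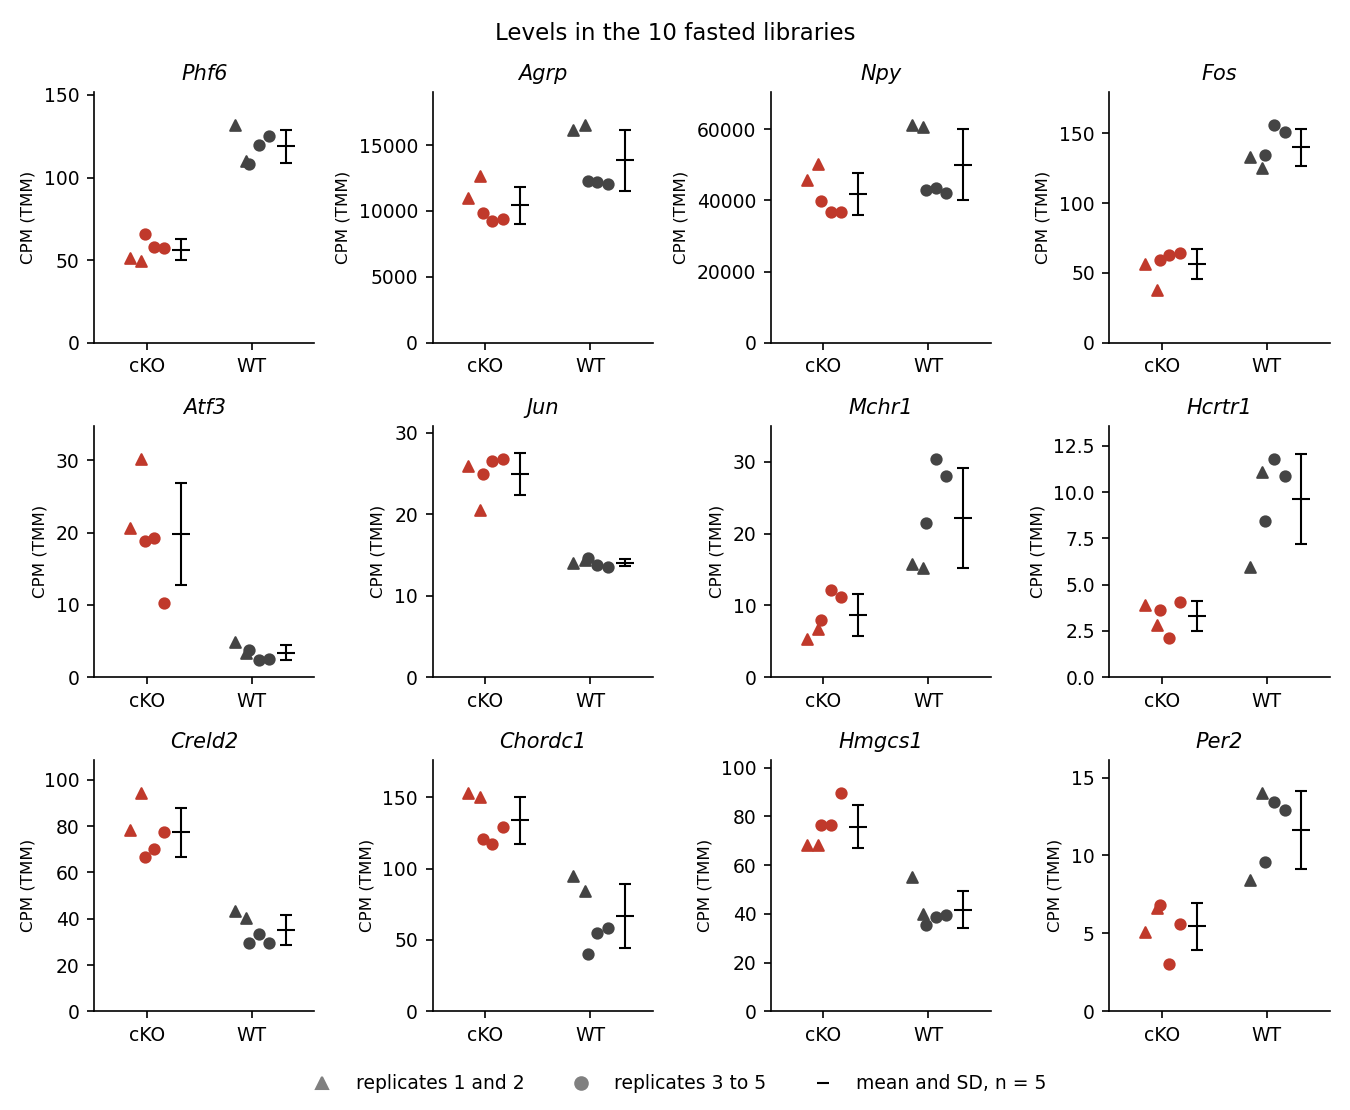
TMM-scaled CPM (y axis, from 0) in each fasted library for 12 genes, cKO left in red and WT right in grey, with triangles for replicates 1 and 2, circles for replicates 3 to 5, and mean with SD beside them (n = 5). Fos, Mchr1, Hcrtr1 and Per2 are lower and Atf3, Jun, Creld2, Chordc1 and Hmgcs1 higher in all 5 cKO libraries, while Agrp and Npy overlap between genotypes and are highest in replicates 1 and 2.

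Of the 20 AgRP identity genes tested, 2 rose and 4 fell (30% called, against 11% of all tested genes), with a median of 0.04. Agrp, the melanocortin receptor antagonist, had 10959, 12671, 9883, 9221 and 9427 CPM in cKO, against 16133, 16542, 12291, 12164 and 12046 CPM in WT. Within each replicate set every cKO library was below every WT library, but the groups overlapped across sets, and the log2 fold change was -0.41 ± 0.10 (adjusted p = 0.019). The call was lost without cKO replicate 4 or cKO replicate 5 (adjusted p up to 0.0516), and 11.3% of the exon bases of Agrp are shared with Gm5914. Npy had 45804, 50117, 39720, 36780 and 36620 CPM in cKO, against 61269, 60550, 42921, 43408 and 42026 CPM in WT. Its log2 fold change of -0.26 ± 0.11 did not pass over the 10 libraries (adjusted p = 0.152), whereas it was -0.34 in replicates 1 and 2 alone (adjusted p = 5.05e-06) and -0.17 in replicates 3 to 5 alone (adjusted p = 0.000899). Fewer AgRP neurons among the sorted cells and less RNA of a gene per cell cannot be told apart in such libraries.

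Receptors for feeding signals included 3 that fell. Mchr1 had 5.30, 6.65, 7.90, 12.1 and 11.2 CPM in cKO, against 15.8, 15.2, 21.5, 30.4 and 28.0 CPM in WT (log2 fold change -1.36 ± 0.24, adjusted p = 0.00275). Hcrtr1, an orexin receptor, had 3.92, 2.80, 3.63, 2.1 and 4.08 CPM in cKO, against 5.94, 11.1, 8.45, 11.8 and 10.9 CPM in WT (-1.54 ± 0.25, adjusted p = 0.00149), and Agtr1a, an angiotensin II receptor, fell by 0.80 on the log2 scale (adjusted p = 0.00144). The genotypes did not overlap for any of the 3. Npy2r, the autoreceptor for NPY, had a log2 fold change of 0.40 (adjusted p = 0.0266) that passed in 6 of the 10 fits without 1 library. The leptin receptor gene Lepr had a mean of 193 ± 47.3 CPM in cKO and 191 ± 40.9 CPM in WT, and the ghrelin receptor gene Ghsr 133 ± 28.4 and 124 ± 14.4 CPM (SD, n = 5 each; adjusted p = 0.967 and 0.657); both were chosen after their values were seen. Of the 23 hormone and peptide receptors tested, 1 rose, 3 fell and 19 did not pass (17.4% called, against 11% of all tested genes). Among the other AgRP identity genes, the protease inhibitor gene Serpina3c rose by 0.57 and passed in every fit without 1 library. Its relative Serpina3n had -0.58 (adjusted p = 0.024), passed in 4 of those 10 fits, and was at -0.05 in replicates 1 and 2 alone (adjusted p = 0.757). With a term for the replicate set 6 of the 20 identity genes rose and 6 fell. Among 21 genes of peptide processing and secretory granules, the prohormone convertase gene Pcsk2 (-0.35) and its chaperone gene Scg5 (-0.17) fell over the 10 libraries. They passed in 4 and 1 of the 10 fits without 1 library. The share called was 9.52%, near the 11% of all tested genes. In replicates 1 and 2 alone 2 of the 21 rose and 0 fell. In replicates 3 to 5 alone 0 rose and 6 fell.

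The cytosolic chaperone list held rises and no falls over the 10 libraries. Of 23 cytosolic heat shock genes tested, 10 rose and none fell (0 fell by DESeq2 and at an unadjusted edgeR p under 0.05). The share called was 43.5%, against 11% of all tested genes. The list median was 0.22, and between 9 and 10 rose whichever single library was left out. In replicates 1 and 2 alone 14 rose and 0 fell, and in replicates 3 to 5 alone 10 rose and 1 fell. Chordc1, an HSP90 co-chaperone, had 153, 150, 121, 117 and 129 CPM in cKO, against 94.8, 84.7, 40.4, 55.1 and 58.5 CPM in WT (log2 fold change 1.01 ± 0.17, adjusted p = 0.00235). Dnajb4 and Dnajb1, co-chaperones of HSP70, rose by 0.78 ± 0.098 and 0.60 ± 0.082, with no overlap between genotypes. The HSP90 cofactors Ahsa1 (0.40) and Stip1 (0.34), the HSP110 gene Hsph1 (0.46), Dnaja1 (0.32) and the mitochondrial Hspe1 (0.40) rose less. Hspa1a, an inducible HSP70, had 9.79, 11.3, 3.95, 6.40 and 5.73 CPM in cKO, against 2.59, 4.55, 2.01, 2.40 and 3.07 CPM in WT (1.35 ± 0.31, adjusted p = 0.011). Its groups overlapped, its near-identical neighbour Hspa1b can share its reads, and 19.0% of its exon bases are shared with Gm20481. The genotype effect of each of these 9 named genes was higher in fasted than in fed mice by the interaction test, with adjusted p up to 0.00308. Stip1, Hsph1, Dnaja1, Hspe1 and Hspa1a were singled out after their values were seen, and 10.8% of the exon bases of Dnaja1 are shared with Smu1.

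Folding genes of the endoplasmic reticulum and genes of cholesterol synthesis also included more rises than falls. Creld2, an ER stress-induced protein, had 78.2, 94.3, 66.5, 70.2 and 77.7 CPM in cKO, against 43.4, 40.4, 29.5, 33.3 and 29.3 CPM in WT (log2 fold change 1.14 ± 0.13, adjusted p = 8.51e-05). Its cKO values lay wholly above its WT values. Of 34 ER genes tested, 7 rose and 1 fell (23.5% called, against 11% of all tested genes), with a median of 0.08. Dnajc3 (0.38) and Edem1 (0.69), a co-chaperone and a factor of ER-associated degradation, rose in every fit without 1 library, whereas Sdf2l1 (0.42), Pdia4 (0.40), Pdia6 (0.22) and Hsp90b1 (0.20) were lost in 3 to 7 of them, and without WT replicate 3 or cKO replicate 5 the count was 3. These 4 were singled out after their values were seen, and 15.7% of the exon bases of Hsp90b1 are shared with 1810014B01Rik. Vimp, an ER membrane selenoprotein, was the gene that fell (-0.57 ± 0.084). Of 26 cholesterol synthesis genes tested, 8 rose and none fell (9 and 2 by DESeq2, 10 and 2 at an unadjusted edgeR p under 0.05). The median was 0.12, and the share called was 30.8%, against 11% of all tested genes. Hmgcs1, which makes the precursor HMG-CoA, had 68.3, 68.1, 76.7, 76.6 and 89.6 CPM in cKO, against 55.1, 40.1, 35.6, 38.6 and 39.4 CPM in WT (0.86 ± 0.12, adjusted p = 0.000469), with no overlap, and 12.1% of its exon bases are shared with Gm48342. Fdft1 (0.40, 18.3% of exon bases shared with Ctsb), Cyp51 (0.53), Pmvk (0.32), Sqle (0.60) and Sc5d (0.43) rose in every fit without 1 library, and Msmo1 (0.44) and Idi1 (0.72) in 6 and 3 of 10; Sqle, Sc5d, Msmo1 and Idi1 were singled out after their values were seen. In replicates 1 and 2 alone 2 of the 26 rose and 0 fell, and in replicates 3 to 5 alone 10 rose and 2 fell. With a term for the replicate set 10 rose and 2 fell.

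The bases before the start of 5 of these genes are given below to show which response elements the groups carry. Each run holds the 250 bases upstream of the RefSeq start (GRCm38.p6), 5′ to 3′ on the gene's own strand, and capitals mark the element searched in either orientation. For Fos (chr12:85473640-85473889, + strand) and Atf3 (chr1:191183334-191183583, - strand), which moved in opposite directions, this is the core of the cyclic AMP response element, TGACGT. For Hspa1a (chr17:34972157-34972406, - strand) it is the heat shock element GAANNTTC, for Creld2 (chr15:88819396-88819645, + strand) the ER stress element, and for Hmgcs1 (chr13:119690101-119690350, + strand) the sterol regulatory element TCACCCCAC.
Fos: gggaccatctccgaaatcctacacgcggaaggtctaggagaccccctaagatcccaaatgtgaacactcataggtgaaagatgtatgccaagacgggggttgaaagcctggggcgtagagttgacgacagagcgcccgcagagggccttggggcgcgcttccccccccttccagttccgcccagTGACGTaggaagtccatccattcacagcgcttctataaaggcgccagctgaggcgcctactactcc
Atf3: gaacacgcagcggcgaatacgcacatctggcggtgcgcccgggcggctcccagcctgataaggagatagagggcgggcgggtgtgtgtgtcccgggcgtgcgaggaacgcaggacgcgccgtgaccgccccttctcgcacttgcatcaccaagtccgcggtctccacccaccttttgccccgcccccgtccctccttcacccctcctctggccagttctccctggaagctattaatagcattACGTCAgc
Hspa1a: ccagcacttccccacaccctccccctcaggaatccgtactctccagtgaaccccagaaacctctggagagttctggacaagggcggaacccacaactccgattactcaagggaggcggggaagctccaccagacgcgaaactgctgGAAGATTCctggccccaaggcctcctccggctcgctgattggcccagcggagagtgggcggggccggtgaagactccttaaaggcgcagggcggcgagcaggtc
Creld2: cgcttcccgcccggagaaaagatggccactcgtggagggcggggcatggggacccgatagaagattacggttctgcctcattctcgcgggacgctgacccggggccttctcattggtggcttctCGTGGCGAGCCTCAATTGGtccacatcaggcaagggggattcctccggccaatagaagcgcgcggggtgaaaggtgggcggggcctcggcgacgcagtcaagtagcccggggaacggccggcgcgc
Hmgcs1: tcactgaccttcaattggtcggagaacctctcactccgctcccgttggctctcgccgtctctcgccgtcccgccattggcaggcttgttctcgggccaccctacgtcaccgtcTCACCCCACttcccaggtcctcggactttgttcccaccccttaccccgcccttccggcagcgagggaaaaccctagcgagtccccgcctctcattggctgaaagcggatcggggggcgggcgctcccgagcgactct
The match begins 66 bases before the start of Fos and 8 bases before that of Atf3, and 104, 126 and 137 bases before those of Hspa1a, Creld2 and Hmgcs1. Among tested genes with a promoter entry, 12% held TGACGT, 6.04% the heat shock element, 0.18% the ER stress element and 0.636% the sterol element. Of members matched to an entry, TGACGT was held by 3 of 6 called and 3 of 14 other activity factors, the heat shock element by 4 of 10 called and 4 of 9 other heat shock genes, the ER stress element by 4 of 7 called and 5 of 19 other ER genes, and the sterol element by 1 of 6 called and 0 of 13 other cholesterol genes. A match describes the letters in this window and is not evidence of binding.

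**Figure D3:**
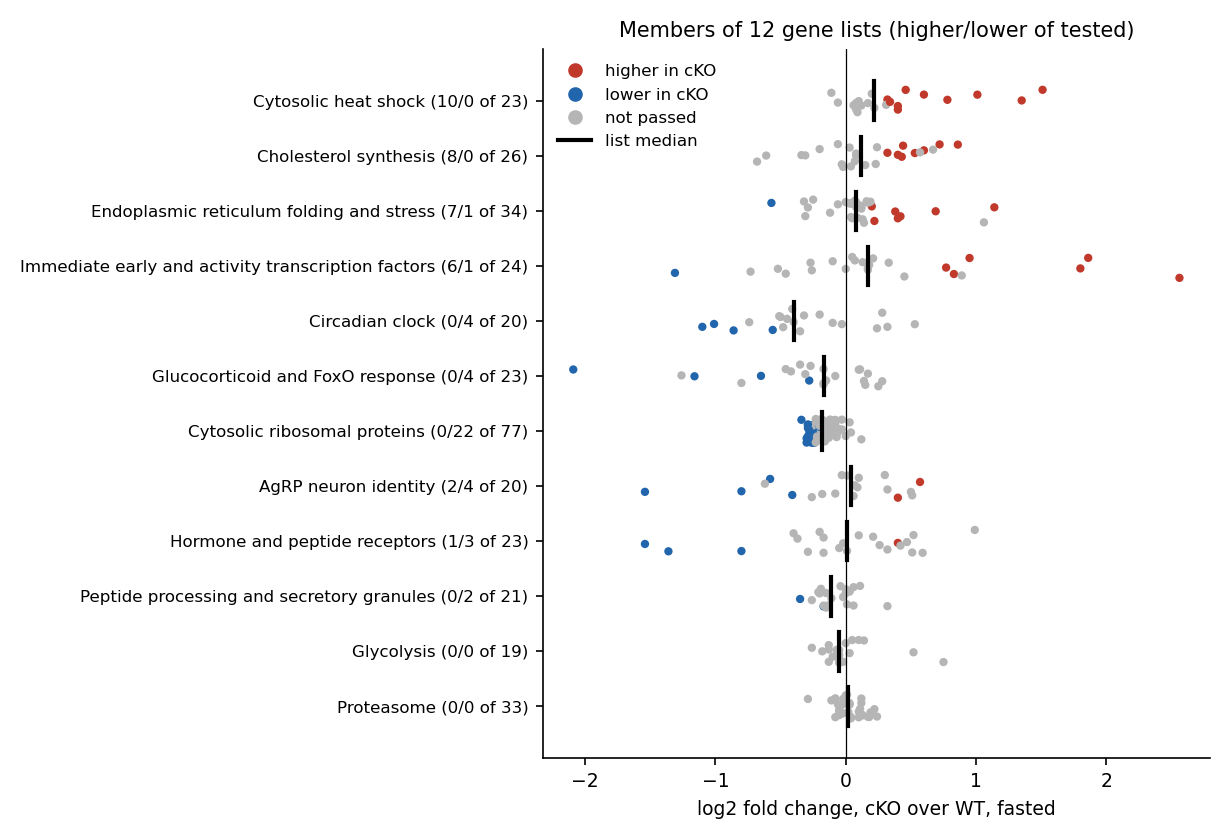
Each point is a tested member of the gene list named at left, placed by its log2 fold change, cKO over WT, in fasted mice (x axis), with black bars for list medians and vertical jitter for clarity. Numbers in brackets are members that rose and fell of those tested. Over the 10 libraries heat shock and cholesterol lists held rises and no falls, ribosomal and circadian lists falls and no rises.

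Over the 10 libraries the circadian and glucocorticoid lists held falls and no rises. Of 20 circadian clock genes tested, 4 fell and none rose (5 and 2 by DESeq2, 12 and 3 at an unadjusted edgeR p under 0.05). The median was -0.40, and the share called was 20%, against 11% of all tested genes. In replicates 1 and 2 alone 1 clock gene rose and 2 fell, and in replicates 3 to 5 alone 2 rose and 7 fell. With a term for the replicate set 3 rose and 9 fell. Per2, a core clock repressor, had 5.07, 6.65, 6.83, 3.04 and 5.62 CPM in cKO, against 8.42, 14, 9.56, 13.4 and 12.9 CPM in WT (log2 fold change -1.10 ± 0.22, adjusted p = 0.00664). Nr1d1, the nuclear receptor REV-ERB alpha, fell by 1.01, Ciart by 0.86 and the repressor Cry2 by 0.56 on the log2 scale, and cKO lay wholly below WT for all 4. All 4 passed in each fit without 1 library, and in replicates 3 to 5 alone, while none passed in replicates 1 and 2 alone, where their log2 fold changes were -0.93, -0.56, -0.66 and -0.42. In fed mice Per2, Ciart and Cry2 had log2 fold changes of 1.06, 0.77 and 0.60, and the interaction passed for each (adjusted p = 1.23e-05, 8.23e-05 and 2.04e-05). Nr1d1 was at -0.16 in fed mice and did not pass there (adjusted p = 0.44), while its interaction passed (adjusted p = 0.000988). The hour of collection is not given in the sources used here. Of 23 glucocorticoid and FoxO response genes, 4 fell and none rose (5 and 1 by DESeq2, 10 and 1 at an unadjusted edgeR p under 0.05). The count that fell was 1 without WT replicate 5 or cKO replicate 1, 3 or 4. The share called was 17.4%, against 11% of all tested genes, with a median of -0.17 and a fed median of 0.82. In replicates 1 and 2 alone 2 of this list rose and 1 fell, and in replicates 3 to 5 alone 1 rose and 8 fell. With a term for the replicate set 2 rose and 9 fell. Nfkbia, the inhibitor of NF-kappa B, had 24.1, 25.5, 22.2, 23.4 and 24 CPM in cKO, against 37.8, 48.9, 29.4, 39.5 and 31.3 CPM in WT (-0.65 ± 0.13, adjusted p = 0.00628) and passed in all 10 fits without 1 library, while Hif3a (-2.09), Ddit4 (-1.16) and Tsc22d3 (-0.28) passed in 6, 2 and 1.

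Of 77 cytosolic ribosomal protein genes tested, 22 fell and none rose (25 and 0 by DESeq2, 42 and 0 at an unadjusted edgeR p under 0.05). The share called was 28.6%, against 11% of all tested genes, and the list median was -0.18. Rpl3 had 1096, 1073, 1198, 1180 and 1218 CPM in cKO, against 1307, 1320, 1561, 1581 and 1510 CPM in WT (log2 fold change -0.34 ± 0.068, adjusted p = 0.00652), so the genotypes did not overlap. Rps2 (-0.30) and Rpl4 (-0.26) fell likewise. The count that fell was 8 without WT replicate 3, cKO replicate 4 or cKO replicate 5, and 43 with a term for the replicate set, while the median ran only from -0.21 to -0.14 over the fits without 1 library. Of 37 ribosome biogenesis genes, Npm1 (-0.22) and Myc (-0.70) fell and none rose (2 and 5 by DESeq2, 5 and 8 at an unadjusted edgeR p under 0.05). The share called was 5.41%, against 11% of all tested genes, and the median was 0.06. Npm1 passed in 6 and Myc in 9 of the 10 fits without 1 library, none of the list fell without WT replicate 4, and up to 4 rose in those fits.

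Metabolic and redox lists differed in their share of called members, which was 23.1% of antioxidant and 16.7% of fatty acid oxidation genes, against 11% of all tested genes. Of 24 fatty acid oxidation genes, the ketone-using enzyme Oxct1 (0.72 ± 0.096, adjusted p = 0.000427), the carnitine carrier Slc25a20 (0.86) and Etfdh (0.64) rose, and Echs1 (-0.31) fell. Oxct1 shares 12.6% of its exon bases with BC037032. Of 26 antioxidant and metallothionein genes, Gsr (0.66), Gclc (0.44), Txnrd1 (0.45) and Srxn1 (0.56), all of glutathione or thioredoxin metabolism or peroxiredoxin repair, rose, and the ferritin gene Fth1 (-0.25) and the zinc exporter gene Slc30a1 (-0.69) fell. Echs1, Srxn1 and Slc30a1 passed in 7, 5 and 5 of the 10 fits without 1 library, and the last 2 were singled out after their values were seen. None of 19 glycolysis genes and none of 33 proteasome genes passed, and 1 of 74 nuclear oxidative phosphorylation genes did (Ndufv3, -0.21, in 2 of the 10 fits without 1 library). By DESeq2 with its own size factors these 3 lists had 2, 3 and 2 called members, and at an unadjusted edgeR p under 0.05 they had 3, 5 and 6.

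Among chromatin, immune-type, lysosomal and neuronal lists, the share of called members was above the 11% of all tested genes in 3. It was 20.8% for interferon response, 20% for autophagy and lysosome and 15.2% for synaptic vesicle release. The share was near 11% for p53 targets (12%), integrated stress response (11.1%), glutamate receptors (9.76%) and PAF1 and NuRD (9.52%). It was lower for cytokine feedback (6.9%), potassium channels (5.71%), GABA (4.55%) and neuronal cytoskeleton (3.12%). Of 21 tested genes of the PAF1 and NuRD complexes, with which PHF6 has been reported to associate, the NuRD deacetylase genes Hdac1 (0.40) and Hdac2 (0.42) rose, in 5 and 7 of the 10 fits without 1 library. Of 24 interferon response genes, 3 rose, among them Irf3 (1.29) and Irf9 (0.58), and Trim25 (-0.64) and Rsad2 (-1.18) fell; Rsad2, singled out after its values were seen, passed in 5 of 10. Of 25 p53 target and apoptosis genes, Gadd45a (-0.94 ± 0.11, adjusted p = 0.000188; 19.1% of exon bases shared with E230016M11Rik) and Pmaip1 (-1.34) fell and Rprm (1.34) rose, the last in 6 of 10. Of 33 synaptic vesicle release genes, the syntaxin gene Stx1a (0.79 ± 0.13, adjusted p = 0.00181) was the largest of 3 that rose, and the calcium sensor gene Syt1 (-0.35) the larger of 2 that fell; 1 gene rose without WT replicate 3, 4 or 5 or cKO replicate 1 or 5. Grin2d (1.00), an NMDA receptor subunit, was among 3 that rose and 1 that fell of 41 glutamate receptor and scaffold genes, and Gabra2 (0.52) was the single call among 22 GABA genes. Of 35 potassium channel genes, Kcnk10 (1.38) and Kcnv1 (1.07) rose, in 9 and 5 of 10, and of 26 sodium, calcium and HCN channel genes none passed (3 at an unadjusted edgeR p under 0.05 and 1 by DESeq2). Of 30 autophagy and lysosome genes 3 rose, among them Atg3 (0.43) and Atg5 (0.36), and 3 fell, among them Cd68 (-0.73). The autophagy count that rose was 1 without WT replicate 3, and the count that fell was 1 without WT replicate 4, WT replicate 5, cKO replicate 1, cKO replicate 3 or cKO replicate 4. Of 29 cytokine and insulin feedback genes 2 rose, among them Pik3r1 (0.43). Of 18 integrated stress response genes 1 rose and 1 fell. None was called in either direction without WT replicate 3, 4 or 5 or cKO replicate 1, 2 or 4. Of 32 neuronal cytoskeleton genes 1 rose, in 3 of the 10 fits without 1 library. Within the sets, 4 of the 32 rose and 0 fell in replicates 1 and 2 alone. In replicates 3 to 5 alone 0 rose and 7 fell.

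The genotype effect differed between fasted and fed mice for 2291 of 13237 genes tested over all 20 libraries (17.3%). This fit shares its estimate of spread between fed and fasted libraries. Between-library coefficients were 0.139 and 0.173 in fasted cKO and WT, against 0.0907 and 0.0768 in fed cKO and WT. The shared estimate may be too small for the fasted groups, and interaction p-values too low. Of the 731 genes that rose when fasted, 527 (72.1%) had an effect that differed from that in fed mice, 74 fell in fed cKO neurons and 63 (8.62%) rose there too. Of the 621 that fell, 409 (65.9%) differed, 68 rose in fed cKO neurons and 38 (6.12%) fell there too. These genes were selected on the same fasted libraries that enter the interaction test, which favours a high share that differs. In fed mice 777 genes rose (5.87%) and 504 fell (3.81%) in cKO, by the fit of all 20 libraries. That fit called 1517 genes higher and 1170 lower when fasted. The fed counts are therefore not on the same footing as the 731 and 621 of the fasted libraries alone. Besides Fos, Egr1 and Nr4a1, the genes with the smallest p for the difference included Kpna2, a nuclear import receptor, with 136, 120, 99.3, 90.7 and 104 CPM in fasted cKO, against 76.9, 73.7, 55.3, 64.4 and 71.8 CPM in fasted WT (log2 fold change 0.68, and -1.11 when fed). Cdkn1a, a cyclin-dependent kinase inhibitor, had log2 fold changes of 0.10 when fasted and 3.31 when fed, the metallothionein gene Mt1 0.11 and 2.84, the kinase gene Sgk1 -0.15 and 1.91, and Rsrp1 -0.36 and 0.62. Of these 4, Rsrp1 passed in the fasted comparison.

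**Figure D4:**
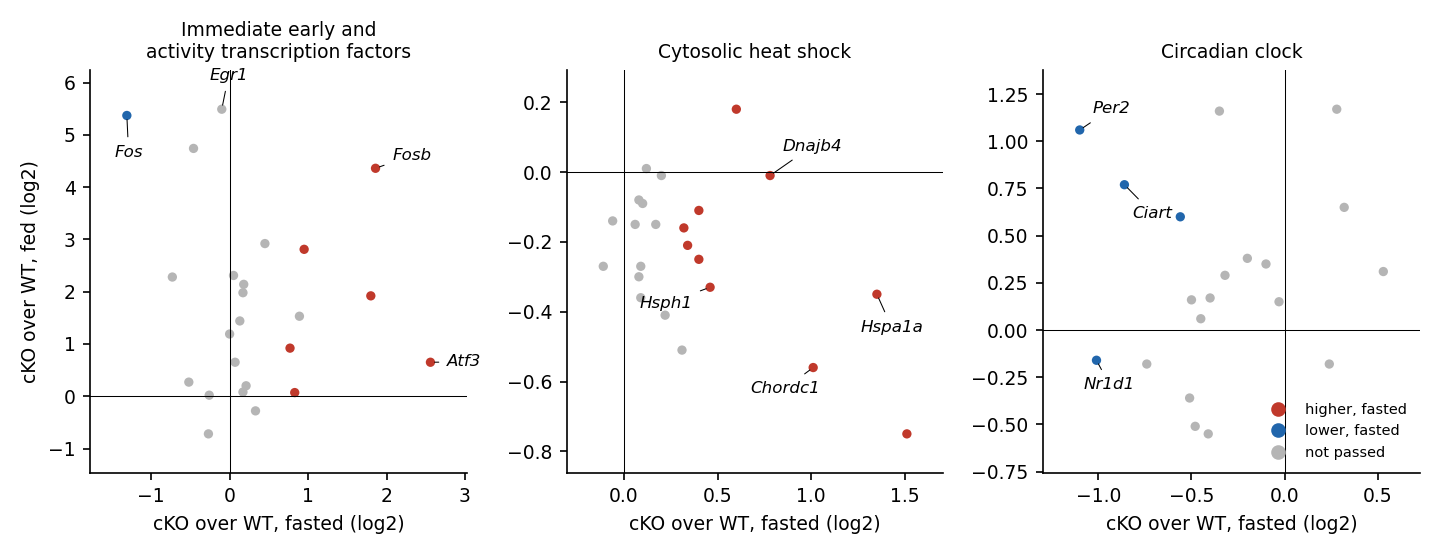
Log2 fold change, cKO over WT, in fasted (x axis) and in fed mice (y axis, own range in each panel) for the tested members of 3 gene lists; points are red or blue where the gene rose or fell when fasted. Fos and Egr1 are above 5 in fed mice and below 0 in fasted mice, and 9 of the 10 heat shock genes that rose when fasted are below 0 in fed mice.

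Replicates 1 and 2 and replicates 3 to 5 gave overlapping but unequal results. In replicates 3 to 5 alone 1635 genes rose (13.3%) and 1368 fell (11.1%), and in replicates 1 and 2 alone 499 rose (4.05%) and 462 fell (3.75%). Of the 1635, 80.4% had a positive log2 fold change in replicates 1 and 2, where 48.9% of all tested genes were positive, and of the 1368, 74.6% were negative there. Both sets alone called 267 genes higher and 188 lower among the 1352. The difference between the sets itself passed for 403 genes (3.27%), of which 37 were among those that rose and 15 among those that fell. Glrx, a glutaredoxin, had 58.4, 46.4, 65.4, 69.2 and 58.6 CPM in cKO, against 91.5, 82.7, 33, 30 and 31.5 CPM in WT, so cKO was below WT in replicates 1 and 2 (log2 fold change -0.73) and above it in replicates 3 to 5 (1.04). Clk1 (-0.67 and 0.45) and Btg2 (-0.47 and 0.79) had opposite signs likewise and passed in both sets, Wdfy1 (-0.39 and 0.72) did too, and Rgs2 (0.31 and 1.01), an inhibitor of G protein signalling, differed in size. Tiparp (-0.12 and 0.89), Cap1 (0.41 and -1.32), Ralyl (-1.81 and -0.35) and Serpina3n (-0.05 and -0.82) were also among those with the smallest p for this difference, and 35.6% of the exon bases of Ralyl are shared with Gm2464.

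**Figure D5:**
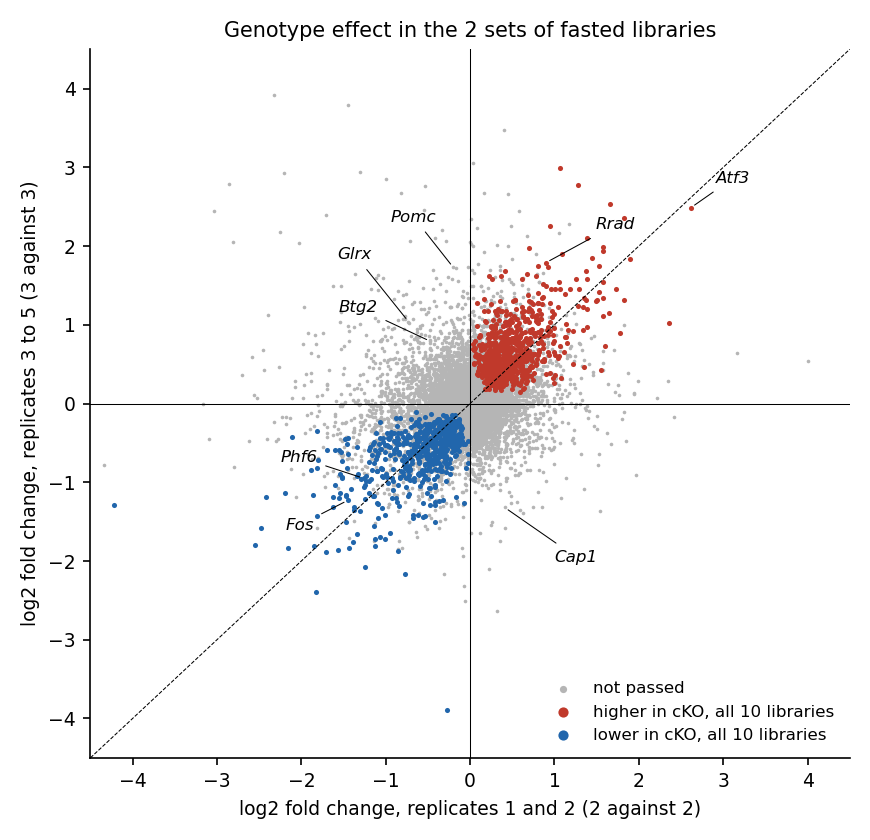
Log2 fold change, cKO over WT, of each tested gene in fasted replicates 1 and 2 (x axis, 2 against 2) and in fasted replicates 3 to 5 (y axis, 3 against 3), with the diagonal dashed. Genes that passed over all 10 libraries are red or blue and lie in the upper right and lower left, which their selection on the same libraries favours, while Glrx, Btg2, Pomc and Cap1 lie off the diagonal.

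Pomc, the precursor gene of the neighbouring anorexigenic neurons, separated the genotypes in replicates 3 to 5; it was singled out after its values were seen. It had 32.7, 37.9, 179, 408 and 311 CPM in cKO, against 36.9, 44.5, 82.6, 126 and 64.3 CPM in WT, so the genotypes separated only in replicates 3 to 5 (log2 fold change 1.45 over all 10 libraries, adjusted p = 0.0864; difference between sets 1.92, adjusted p = 0.000208). Cartpt, which Pomc neurons also express, rose by 0.66 ± 0.11 (adjusted p = 0.00169) at 372, 452, 579, 605 and 550 CPM in cKO, against 335, 354, 329, 310 and 287 CPM in WT, and its call was not made in replicates 1 and 2 alone (0.26). The summed level of the 7 Pomc neuron markers was 431 to 505 CPM in cKO replicates 1 and 2 and 796 to 1060 CPM in cKO replicates 3 to 5, against 365 to 455 CPM in the 5 WT libraries; the marker Nr5a1 had no count in any of them. The part that such cells may have in other differences of replicates 3 to 5 was not tested. Pituitary markers summed to 71.6 and 88.6 CPM in WT replicates 1 and 2, against at most 3.75 CPM in the cKO libraries and at most 0.403 CPM in the other WT libraries. Without a set term no other marker list had a member that passed over the 10 libraries. With that term 1 astrocyte and 2 dopamine neuron markers rose, and 1 mural and 1 kisspeptin neuron marker fell. Of the other hypothalamic neuron markers 1 rose and 1 fell. These last markers summed to 553 to 995 CPM in cKO replicates 3 to 5, against 408 to 487 CPM in WT replicates 3 to 5. In replicates 1 and 2 they overlapped, at 540 to 1100 CPM in cKO and 700 to 1000 CPM in WT.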

How the data were processed

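RNA-seq counts per gene were taken from the authors' deposited table of raw counts for 20 libraries, of which the 10 fasted ones enter the comparison; the deposited normalized table was not used. Each library was made from 1000 sorted cells with SMART-seq v4, per the labels' protocols. Trimmomatic 0.36, HISAT2 2.1.0, featureCounts of Subread 1.6.2, DESeq2 1.20.0 and the build GRCm38/mm10 are named in the submitters' processing notes; for counting, neither annotation nor strand setting is given in the sources used here. The table holds 23129 genes and no mitochondrial gene, and 95.4% of its names matched GENCODE vM21, from which positions and exon overlaps were taken.

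Genes were kept with edgeR's filterByExpr (minimum count 10, minimum total 15), scaled by TMM and tested with edgeR 4.0.16 (quasi-likelihood test, R 4.3.3) on the fasted libraries without covariates; p-values were adjusted over all 12333 genes, at a threshold of 0.05. Interactions of genotype with feeding and the fed comparison used all 20 libraries, with a spread shared by fed and fasted groups. Interactions with replicate set used the 10 fasted libraries. The script was tested on simulated data. Alternatives used DESeq2 1.42.0, limma 3.58.1, other scalings and filters, terms for replicate number or set, each set alone, and fits without each library. Depth was 8494499 to 10000278 counts, at which a count of 0 allows at most 0.353 CPM (3 counts; counting error only).

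Named genes are the 15 largest changes each way among called genes whose mean level is 3 log2 CPM or more and whose direction is shared by both replicate sets, up to 4 called genes per list by p, and those with the smallest interaction p, without numbered gene models; not all are described, and others are said to be chosen after their values were seen. Some genes are not reported here. The members and the gene lists were chosen with earlier results of these data known.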

Additional observations from a re-analysis of the deposited data

Results flagged for a closer look

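Of 282 groups of 5 fasted libraries checked over 141 genes, 12 (chance gives about 5%) had a library far from the other 4. In cKO these were Exosc6 at 12.3 CPM in replicate 5, Gnb3 at 4.43 CPM and Zfp433 at 2.92 CPM in replicate 2, all low, Fosb at 16.1 CPM in replicate 2, high, Pdia6 at 931 CPM in replicate 3, low, Hdac2 at 181 CPM in replicate 1, high, and Myc at 17.8 CPM in replicate 3, high. In WT they were Nr4a1 at 21.4 CPM and Hmgcs1 at 55.1 CPM in replicate 1, both high, Gsr at 25.6 CPM in replicate 3, high, Irf9 at 22.1 CPM, high, and Hdac1 at 23.4 CPM, low, both in replicate 2.

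The genotype effect differed between fasted and fed mice for 2291 genes by the interaction test, which shares its spread between fed and fasted libraries. The difference in log2 fold change, fasted minus fed, was -6.68 for Fos, -5.59 for Egr1, -5.20 for Nr4a1, -3.20 for Cdkn1a, -2.73 for Mt1, -2.06 for Sgk1, -0.97 for Rsrp1 and 1.8 for Kpna2.

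The genotype effect differed between the replicate sets for 403 genes. The difference, replicates 3 to 5 minus replicates 1 and 2, was 1.77 for Glrx, 1.45 for Ralyl, 1.24 for Btg2, 1.11 for Clk1, 1.10 for Wdfy1, 1.00 for Tiparp, 0.69 for Rgs2, -0.78 for Serpina3n and -1.74 for Cap1. What distinguishes the sets in the laboratory is not given in the labels, and its part in these values was not tested.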

How the results depend on the processing

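The counts of 731 higher and 621 lower genes became 1517 and 1170 with all 20 libraries in the fit, 1448 and 1273 with a replicate set term, and 1635 and 1368 in replicates 3 to 5 alone; DESeq2 gave 1042 and 838. Over the fits without 1 library they ran between 381 and 952 and between 306 and 799, Phf6 between -1.13 and -1.02, the set interaction between 181 and 569 genes, and the feeding interaction between 1941 and 2700, or 3603 with fasted replicates 3 to 5 alone. With a replicate block the counts were 1251 and 1076. Deviations from the mean of each genotype (log2 CPM) were correlated between cKO and WT libraries. For same-numbered libraries these correlations were 0.0416 to 0.186. For cKO replicates 2, 3, 4 and 5 the best WT match carried the same number, for replicate 3 by 0.0416 against 0.0405. For cKO replicate 1 it was WT replicate 2 (0.137), with WT replicate 1 at 0.127. The labels give no batch, and the main comparison did not pair libraries by number. The difference in total counts was -880569 without WT replicate 2 (exact permutation p = 0.00794) and -504124 without WT replicate 5. Of 141 named genes 126 passed, and 88 of these passed in each fit without 1 library.

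Among the named genes, signs turned only for those that did not pass over the 10 libraries. In replicates 3 to 5 alone Egr1 was at 0.02, Lepr at -0.02, Ghsr at -0.03, Mt1 at -0.10 and Clk1 at 0.45. In replicates 1 and 2 alone Pomc was at -0.20, Wdfy1 at -0.39, Btg2 at -0.47, Glrx at -0.73, Tiparp at -0.12 and Cap1 at 0.41. Lepr was at -0.01 with upper-quartile scaling and -0.05 with GC and length offsets, and Clk1 at 0.01 with limma-voom. Without 1 library Lepr ran over -0.09 to 0.12, Ghsr over -0.01 to 0.16, Mt1 over -0.03 to 0.20 and Clk1 over -0.18 to 0.10. The cause of these shifts was not tested. Genes near 0 CPM are limited by depth.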
